A study of Mus musculus with 6 samples.

Results

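The nuclear factor I (NFI) family of the mouse consists of the transcription factor genes Nfia, Nfib, Nfic and Nfix, and all 4 were found by symbol among the 48526 genes of the deposited count table. RNA had been sequenced from neural progenitor cells made from mouse embryonic stem cells (mESCs), with 3 libraries from a line labelled -/- for Dmrta2 and 3 from the control line labelled flox/flox, in which recombinase sites flank part of the same gene. Both lines were differentiated without serum in the same medium. It contained the BMP receptor inhibitor LDN193189 (100 nM) and the activin and TGF-beta receptor inhibitor SB431542 (10 µM) from day 0 to 4, the Wnt pathway inhibitor XAV939 (1 µM) from day 0 to 6, and the Hedgehog pathway inhibitor cyclopamine (1 µM) from day 2 to 10. Cells were replated on laminin on day 5, and RNA was extracted on day 8. Each genotype is 1 mESC line with 3 biological replicates. Genotype and line therefore cannot be told apart, and p-values measure only how samples of a line vary.

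NFI proteins bind DNA as homodimers or heterodimers through a conserved N-terminal domain, recognise a palindrome with the half-site TTGGC, and activate or repress transcription depending on the promoter. In the developing forebrain and spinal cord of the mouse, Nfia, Nfib and Nfix are made in radial glia, where they promote the exit from self-renewal and the switch from making neurons to making glia. Nfic is broadly expressed and best known for its part in tooth root formation.

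Total counts ran from 29031604 to 39646793 in the libraries labelled -/- and from 24565560 to 29820515 in the flox/flox libraries. Levels are given as CPM, the read count of a gene scaled to a fixed library total after TMM normalisation. Dmrta2 itself measured 409, 414 and 439 CPM in -/- A, B and C, against 85.2, 75.1 and 79.2 CPM in the flox/flox libraries of the same letters. All 3 libraries labelled -/- were higher. The deleted part of Dmrta2 is not given in the labels and reads were counted over the entire gene, so this level checks nothing about the deletion. The word labelled is kept for these libraries throughout.

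The members are paralogs, and reads could be misassigned between them where their sequences are alike. To show how alike they are, the ungapped stretch of 90 coding bases in which the others are most like Nfia is given here, from the GENCODE M21 transcripts. It lies in exon 2 of each gene, which encodes part of the DNA-binding domain, and capitals mark the bases that differ from Nfia.
Nfia: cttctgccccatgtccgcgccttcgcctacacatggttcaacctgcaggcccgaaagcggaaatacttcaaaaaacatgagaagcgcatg
Nfib: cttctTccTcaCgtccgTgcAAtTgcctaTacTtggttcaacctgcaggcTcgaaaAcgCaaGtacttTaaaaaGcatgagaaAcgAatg
Nfic: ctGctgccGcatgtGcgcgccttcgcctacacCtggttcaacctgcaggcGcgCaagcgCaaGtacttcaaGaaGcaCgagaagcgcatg
Nfix: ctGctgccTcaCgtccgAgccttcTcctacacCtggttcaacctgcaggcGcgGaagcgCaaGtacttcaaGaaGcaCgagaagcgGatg
On GRCm38 these stretches lie at chromosome 4, 97783109 to 97783198 on the plus strand (Nfia), and on the minus strand at chromosome 4, 82498653 to 82498742 (Nfib), chromosome 10, 81420682 to 81420771 (Nfic) and chromosome 8, 84772199 to 84772288 (Nfix). Even here Nfib, Nfic and Nfix differed from Nfia at 17, 11 and 14 of the 90 bases. Over the longest complete coding sequences (1530, 1713, 1386 and 1485 bases for Nfia, Nfib, Nfic and Nfix), identity between pairs of genes was 70.9% to 74.8% of aligned bases. It was 76.3% to 84.3% over the first 540 bases and 66.1% to 69.9% over the rest. The longest exact stretch shared by the transcripts of any pair was 32 bases, between Nfic and Nfix, and 0 of the 50-base words in the transcripts of any member occurred in those of another. Only exact matches were counted here, and misassignment of reads aligned with mismatches was not tested.

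All 4 genes fell in the libraries labelled -/-. Nfia fell the most, 7.09-fold, followed by Nfib at 3.66-fold and Nfix at 3.23-fold, and Nfic fell the least, 1.62-fold. The highest library labelled -/- was below the lowest flox/flox library for each of them. Of the 20549 genes tested, 17.4% fell, and for 25.4% all libraries labelled -/- were below all flox/flox libraries (51% did not overlap in either direction). A log2 fold change of -1 or less with an adjusted p below 0.05, which Nfia, Nfib and Nfix had and Nfic did not, was found for 6.6% of the genes. The median log2 fold change was -1.78 over the 4 members and -0.0025 over all genes tested. In bulk RNA, fewer cells of a type that expresses a gene and less RNA of it per cell cannot be told apart.

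Nfia, a driver of the onset of gliogenesis, lies on chromosome 4 (ENSMUSG00000028565, GRCm38, 97772734 to 98118874, plus strand), 11.9 Mb from Dmrta2. It measured 3.79, 2.89 and 4.19 CPM in -/- A, B and C, against 40.7, 17.4 and 18.6 CPM in the controls flox/flox A, B and C. The libraries labelled -/- lay close together, whereas flox/flox A was more than 2 times as high as the other control libraries. The group means were 3.62 ± 0.663 CPM and 25.6 ± 13.1 CPM (SD, n = 3 each), with counts of 102 to 149 reads per library labelled -/- and 458 to 1204 per flox/flox library. The log2 fold change was -2.83 ± 0.36 (SE), and edgeR's quasi-likelihood test gave an adjusted p of 0.00134. Only 0.686% of the tested genes had a log2 fold change as low or lower. Without flox/flox A the log2 fold change of Nfia was -2.32 (adjusted p = 0.00104, edgeR), the smallest that leaving out any single library gave.

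Nfib, whose loss in the mouse leaves defects of the corpus callosum and lung, lies 27.3 Mb from Dmrta2 on the same chromosome (ENSMUSG00000008575, 82290173 to 82705750, minus strand). Its levels were 8.77, 8.65 and 11.6 CPM in -/- A, B and C, against 41.5, 29.4 and 35.0 CPM in the controls flox/flox A, B and C. The spread within each group was small beside the gap between them, with a coefficient of variation of 17.3% in the libraries labelled -/- and 17.2% in the flox/flox libraries. The log2 fold change was -1.87 ± 0.16 (SE, adjusted p = 0.000453, edgeR), the smallest adjusted p of the 4 genes.

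Nfix, which drives fetal gene programmes in muscle and the maturation of neural progenitors, is on chromosome 8 (ENSMUSG00000001911, 84699876 to 84800344, minus strand). It stood at 4.22, 3.52 and 3.31 CPM in -/- A, B and C, against 16.2, 9.61 and 9.96 CPM in the controls flox/flox A, B and C. As with Nfia, flox/flox A was the highest library and flox/flox B and C lay close together. The log2 fold change of Nfix was -1.69 ± 0.23 (SE, adjusted p = 0.00168, edgeR), and without flox/flox A it was -1.40 (adjusted p = 0.00193, edgeR).

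Nfic, on chromosome 10 (ENSMUSG00000055053, 81396186 to 81455635, minus strand), had 14.6, 15.1 and 16.1 CPM in -/- A, B and C, against 30.0, 22.4 and 21.5 CPM in the controls flox/flox A, B and C. The libraries labelled -/- varied by a coefficient of variation of 4.83% and the flox/flox libraries by 19.0%, again with flox/flox A the highest. Its log2 fold change was -0.69 ± 0.14 (SE, adjusted p = 0.00714, edgeR). Leaving out single libraries gave -0.52 to -0.77 and adjusted p-values of up to 0.0326.

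**Figure D1:**
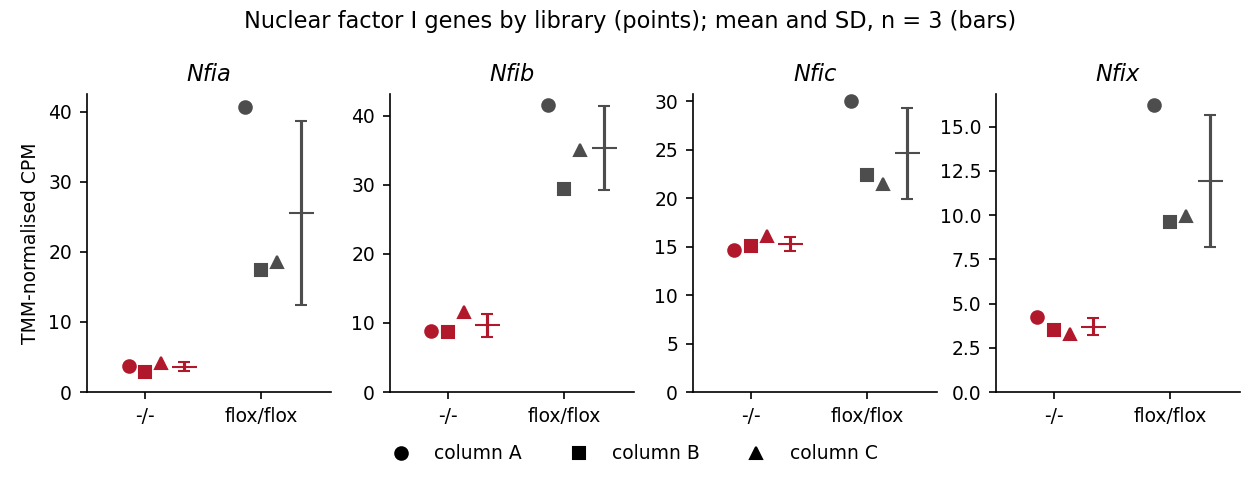
TMM-normalised CPM (y axis, linear from 0, one scale per gene) of Nfia, Nfib, Nfic and Nfix in the libraries labelled -/- (left, red) and flox/flox (right, grey); marker shapes give the column letter and bars the mean and SD of 3 libraries. All red points lie below all grey points in each panel, and flox/flox A is the highest library for each gene (40.7 CPM for Nfia).

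The 4 genes kept their direction and their side of the 0.05 threshold under each of 15 alternative settings, which changed the scaling, the filter, the test or the threshold, blocked on the column letter, or left out a library. The plot of fold changes by setting shows that the scaling and test settings hardly moved them, from -2.75 to -2.83 for Nfia, and that leaving out flox/flox A moved them the most for Nfia, Nfic and Nfix.

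**Figure D2:**
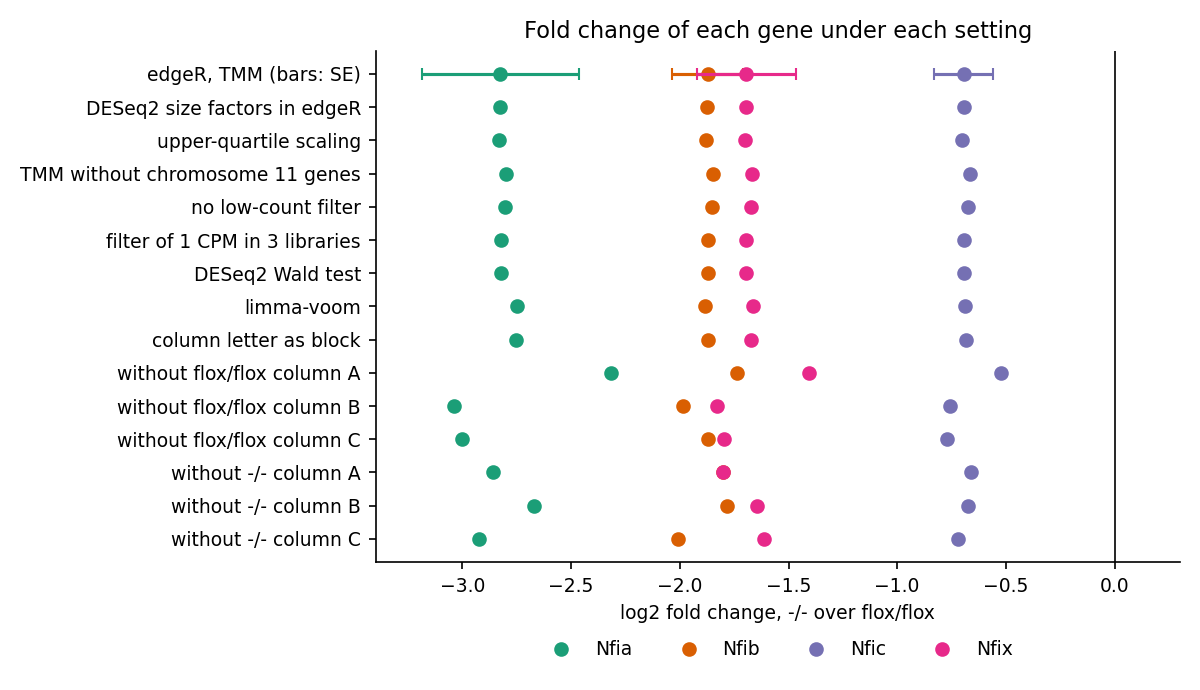
Log2 fold change of the libraries labelled -/- over flox/flox (x axis) for Nfia, Nfib, Nfic and Nfix under each setting (rows); bars in the top row are the SE of the edgeR fit, and the stricter threshold is not drawn because it leaves the values as they are. All points lie below 0, Nfia between -2.32 and -3.04 and Nfic between -0.52 and -0.77.

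Counts divided by the merged exon length of each gene (10891, 14957, 6630 and 7351 bases for Nfia, Nfib, Nfic and Nfix) allow the levels of the paralogs to be compared. In the libraries labelled -/- the order was Nfic (2.30 ± 0.111 CPM per kb), Nfib (0.647 ± 0.112), Nfix (0.501 ± 0.0650) and Nfia (0.333 ± 0.0609; SD, n = 3). In the flox/flox libraries it was Nfic (3.72 ± 0.708 CPM per kb), Nfib (2.36 ± 0.407), Nfia (2.35 ± 1.20) and Nfix (1.62 ± 0.506; SD, n = 3). Nfic had the highest mean in both groups, while Nfia had the lowest mean in the libraries labelled -/- and a mean close to that of Nfib in the flox/flox libraries. In the libraries labelled -/- no neighbours in this order overlapped, although Nfib (at least 0.578 CPM per kb) and Nfix (at most 0.574) barely separated. Across the flox/flox libraries the ranges of Nfib, Nfia and Nfix overlapped. So did those of Nfic (at least 3.24 CPM per kb) and Nfia (at most 3.74, in flox/flox A). Within each single flox/flox library, however, Nfic was above Nfia and Nfib, and both of these were above Nfix. Only the order of Nfia and Nfib changed, with Nfia the higher in flox/flox A alone.

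The summed level of the family was 3.72, 3.60 and 4.04 CPM per kb in -/- A, B and C, against 13.2, 8.24 and 8.65 CPM per kb in the controls flox/flox A, B and C. Group means were 3.78 ± 0.227 CPM per kb and 10.0 ± 2.78 CPM per kb (SD, n = 3 each), which differ by 2.66-fold. Nfic made up 60.9% ± 2.04 of this sum in the libraries labelled -/-, against 37.6% ± 3.37 in the flox/flox libraries (SD, n = 3 each). Nfia made up 8.76% ± 1.19 in the libraries labelled -/-, against 22.4% ± 4.98 in the flox/flox libraries. Nfib took 17.0% ± 1.92 in the libraries labelled -/- and 23.9% ± 3.05 in the flox/flox libraries. Nfix took 13.3% ± 2.15 in the libraries labelled -/- (at most 15.4%) and 16.1% ± 0.521 in the flox/flox libraries (at least 15.7%). On this length-scaled measure none of the 4 shares overlapped between the groups, that of Nfix by the narrowest gap. Of the single genes tested, 51% did not overlap in either direction, and how often such shares do so in general was not determined. The shares of a library add up to a whole, so a larger share of Nfic leaves less for the others. They are not separate pieces of evidence. Without division by length the shares of Nfib and Nfix did overlap between the groups. Nfix then had a mean of 11.5% in the libraries labelled -/- and 12.2% in the flox/flox libraries. The exon lengths are those of all annotated transcripts merged, and the isoforms in use were not measured, so the shares depend on that length.

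**Figure D3:**
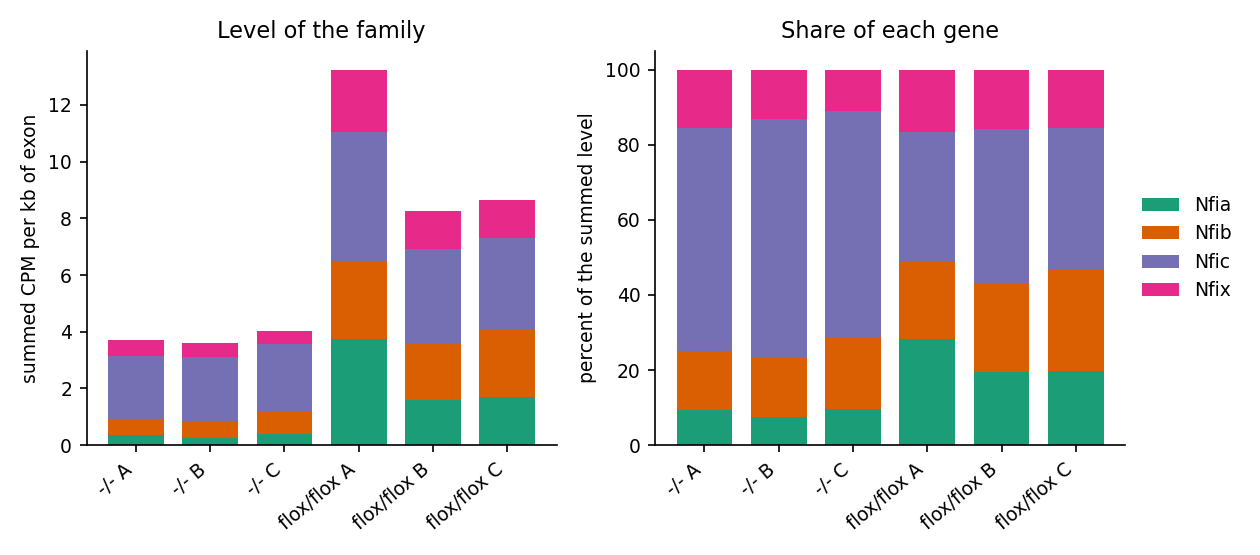
Left, level of the NFI family as CPM per kb of merged exon, stacked by gene, for -/- A, B and C and then flox/flox A, B and C; right, the same as percent of each library's sum. The sum is 3.60 to 4.04 CPM per kb in the libraries labelled -/- and 8.24 to 13.2 in the flox/flox libraries, and the share of Nfic is larger in each library labelled -/-.

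Whether the paralogs fell by unequal amounts was asked with the log2 ratio of 2 members within each library, which needs no scaling between libraries. Of the 6 pairs of members, 5 had ratios that did not overlap between the groups. Non-overlap was common in these data, at 51% of the single genes tested, in either direction. The share among gene pairs in general was not determined. Pairs that share a member are not independent, so these 5 are not separate pieces of evidence. The ratio of Nfia to Nfic (per kb) was -2.67, -3.10 and -2.66 in -/- A, B and C, against -0.28, -1.08 and -0.93 in the controls flox/flox A, B and C, a mean difference of -2.05. The ratio of Nfib to Nfic differed by -1.19 and that of Nfia to Nfix by -1.06. The ratio of Nfic to Nfix differed by 0.99 in the other direction, and that of Nfia to Nfib by -0.86 (-0.59 without flox/flox A). Each of these 5 pairs gave p = 0.10 in the two-sided exact permutation test over samples, the smallest that 3 libraries against 3 allow (0.12 adjusted over the 6 pairs), so none could pass 0.05. Nfib and Nfix overlapped, with a difference of -0.20 (exact permutation p = 0.40), and over the omission of single libraries this difference ran from -0.04 to -0.42.

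Few exonic bases of the members are shared with other genes. Of these bases, 0.0367% of Nfia, 0% of Nfib, 1.09% of Nfic and 1.92% of Nfix lie under exons of another gene on either strand. Genes that overlap the members held few reads: E130114P18Rik, opposite the start of Nfia, had 29 reads over the 6 libraries, Lyl1 and G430095P16Rik, opposite Nfix, had 13 and 6, and Gm11266, opposite Nfib, had 7. Another 5 overlapping genes had 0 reads. Gm16104, an antisense gene within Nfic with 46 reads in all, fell by 1.96 on the log2 scale (adjusted p = 0.00716, edgeR). Antisense reads cannot be told from reads of Nfic here, because the strand setting of the counting is not given in the sources used here.

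Of the nearest protein-coding genes on either side of the members, Gm10192 (beside Nfia) had 0 reads in all 6 libraries and gave no fold change. Next to Nfib, Zdhhc21, the gene of a palmitoyltransferase, fell 1.32-fold (47.6 ± 2.37 CPM in the libraries labelled -/-, 62.8 ± 1.54 CPM in the flox/flox libraries; adjusted p = 0.00264, edgeR). Mpdz, which encodes a tight junction scaffold, had a log2 difference of -0.15 (adjusted p = 0.0979, and 0.038 when blocked on letter), and Tm2d1, beside Nfia, one of -0.35 (adjusted p = 0.117). Both neighbours of Nfic rose. Celf5, the gene of a neuronal RNA-binding protein 3592 bp from Nfic, rose 1.67-fold (64.2 ± 11.4 CPM in the libraries labelled -/-, 38.4 ± 7.51 CPM in the flox/flox libraries; adjusted p = 0.0133, edgeR), and Smim24, 794 bp away, rose to 0.714 ± 0.136 CPM, against 0.362 ± 0.0802 CPM in the flox/flox libraries (adjusted p = 0.0314, lost in DESeq2 and on leaving out any library but -/- C). Beside Nfix, the tRNA methyltransferase gene Trmt1, which ends 68 bp from it, was at 54.8 ± 2.38 CPM in the libraries labelled -/- and 48.6 ± 5.14 CPM in the flox/flox libraries (adjusted p = 0.162, edgeR). Dand5, the gene of a secreted BMP and Nodal antagonist, rose 1.49-fold (adjusted p = 0.0328, edgeR), a call lost without flox/flox A or B or without -/- B or C (up to 0.111). Over all tested genes of chromosomes 4, 8 and 10 the median log2 fold changes were -0.035, -0.011 and -0.044, and 20.6%, 18.2% and 21.6% of them fell. On the same chromosomes 170 of 1320, 123 of 1051 and 145 of 874 tested genes rose. Of all genes tested, 17.9% rose and 17.4% fell.

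RefSeq promoter windows on GRCm38.p6, from 250 bases before to 50 after a transcript start, were matched by symbol for Nfia (1 window), Nfic (1) and Nfix (4), and Nfib was not analysed here. These windows are not at the outermost starts of the gene spans given above. That of Nfia (97581693 to 97581992) lies upstream of the GENCODE span, and those of Nfic (81427124 to 81427423) and Nfix (between 84772826 and 84780332) lie inside it, so that other starts of these genes were not searched. The full NFI palindrome (TTGGC and its reverse complement with 5 bases between them), the extended NFI half-site TTGGCA and the Dmrt core ACANTGT were searched on both strands, and a half-site match can lie within a palindrome match. None of the 3 motifs was present in the 6 windows. The 3 motifs occur in 0.0365%, 14.1% and 7.54% of all 32851 promoter windows of that length. The shorter half-site TTGGC was not among the motifs searched, and its letters do occur in windows of Nfix, as in the window that starts at 84773361. The search therefore does not show that these windows lack NFI half-sites.

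The genes whose pattern over the 6 libraries was most like that of each member were found by the root mean square difference between log2 levels, each centred on the gene's own mean, among 11508 genes with a mean of at least 5 CPM. Closest to Nfia were the immediate early gene Fos (0.19 log2 units), Id1, an inhibitor of bHLH factors that BMP signalling induces (0.25), and Gas1, a Hedgehog co-receptor (0.28). Only Fos and Id1 lay within 0.25 of Nfia. Counts within this fixed distance depend on the size of a gene's change, so they do not show that a pattern is rare. For Nfib the closest were Slc6a15, an amino acid transporter (0.15), the calcium-dependent kinase gene Camk1d (0.17) and Rspo3, a secreted enhancer of Wnt signalling (0.17), and 10 genes lay within 0.25. Nfix was closest to Patj, a tight junction polarity gene (0.08), the matrix protein gene Hmcn1 (0.10) and the scavenger receptor gene Scarf2 (0.12), with 72 genes within 0.25. Nfic, whose change was smallest, had 1272 genes within that distance, led by the adhesion gene Cadm1 (0.05), Dsel (0.06) and Iqsec2 (0.07). Among the members, Nfib and Nfix were the most alike (0.28) and Nfia and Nfic the least (1.05).

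Of 17 genes reported to be regulated by NFI factors in neural or other mouse and human cells, 15 were tested, and they moved in both directions, with 5 rising and 4 falling. The median log2 fold change of the 15 was -0.16. By comparison 35.3% of all genes passed the threshold in either direction, 17.9% rising and 17.4% falling. Without flox/flox B or without -/- C 3 genes rose, and without -/- B 1 fell.

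Among the glial genes of this list, Fabp7, a fatty acid binding protein of radial glia with NFI sites in its human promoter, rose 1.91-fold to 389 ± 15.9 CPM in the libraries labelled -/-, against 204 ± 51.8 CPM in the flox/flox libraries (SD, n = 3 each; adjusted p = 0.00519, edgeR). Slc1a3, the glutamate transporter of radial glia and astrocytes, was at 40.8 ± 2.28 CPM in the libraries labelled -/- and 36.9 ± 3.85 CPM in the flox/flox libraries (adjusted p = 0.262). Gfap, the classical NFI-dependent astrocyte gene, had 34 reads over the 6 libraries and was not tested, and the cerebellar gene Gabra6 had 0. Apcdd1, a Wnt inhibitor induced by Sox9 with Nfia in the spinal cord, fell to 37.8 ± 3.48 CPM, against 70.4 ± 21.7 CPM in the flox/flox libraries (adjusted p = 0.0123, and 0.0512 without -/- B). Mmd2 and Zcchc24, from the same set of Sox9 and Nfia targets, had log2 differences of -0.16 and -0.51 (adjusted p = 0.730 and 0.115, edgeR). For Mmd2 the sign changed without flox/flox C (0.14), and Zcchc24 passed without flox/flox C (0.0469).

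Progenitor genes that NFI factors are reported to repress did not move one way. Sox9, on chromosome 11, rose 2.23-fold to 86.2 ± 11.8 CPM, against 38.7 ± 8.10 CPM in the flox/flox libraries (adjusted p = 0.00187, edgeR). Of the 1589 tested genes of chromosome 11, 947 rose, and the median log2 fold change of the 1589 was 0.49. The part of this chromosome-wide shift in the rise of Sox9 was not tested. Hes1, a Notch effector repressed by Nfia in the mouse hippocampus, fell to 24.5 ± 4.08 CPM, against 36.5 ± 3.43 CPM in the flox/flox libraries (adjusted p = 0.0129, and 0.0505 without -/- B). Hes5 rose 1.90-fold (adjusted p = 0.0482, lost without flox/flox B, -/- B or -/- C), and 31.8% of its exonic bases lie under another gene. Ezh2, the Polycomb methyltransferase gene repressed by Nfib in the mouse cortex, was at 189 ± 2.31 CPM in the libraries labelled -/- and 194 ± 13.2 CPM in the flox/flox libraries (log2 difference -0.04 ± 0.06, adjusted p = 0.693, with a sign that changed without flox/flox C, 0.03). Bbx, repressed by Nfix, fell by 0.49 on the log2 scale (adjusted p = 0.00545), and Insc, the gene of a spindle orientation protein activated by Nfix, rose to 1.32 ± 0.391 CPM, against 0.512 ± 0.137 CPM in the flox/flox libraries (adjusted p = 0.0141, edgeR).

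Among NFI targets known from cerebellar granule neurons, the axonal adhesion gene Cntn2 rose 2.10-fold (adjusted p = 0.0290), which was lost without flox/flox A or B or -/- C (up to 0.0940). Cdh2, encoding N-cadherin, fell 1.32-fold (adjusted p = 0.0193), lost without flox/flox A or B or -/- B or C (up to 0.0767), and Efnb1 had a log2 difference of -0.24 (adjusted p = 0.181). Cdkn1a, a cell cycle inhibitor gene, had one of -0.51 (adjusted p = 0.112, edgeR), which passed without flox/flox C (0.022) and when blocked on letter (0.000339).

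Of 11 factors that act upstream of NFI genes or together with NFI proteins in gliogenesis, 6 rose and 3 fell. Their median log2 fold change was 0.62. Among all genes tested, 17.9% rose and 17.4% fell. Pou3f2, a POU factor of neural progenitors, rose 4.96-fold to 173 ± 28.4 CPM, against 35.0 ± 13.5 CPM in the flox/flox libraries (SD, n = 3 each; adjusted p = 0.00107, edgeR). Notch1, the receptor whose signalling induces Nfia in mouse progenitors, rose 2.17-fold (adjusted p = 0.00120), while Rbpj, the DNA-binding factor of the pathway, had a log2 difference of -0.08 (adjusted p = 0.326). Sox9, the inducer of Nfia in the spinal cord, is counted here too. Stat3, the effector of astrocyte-inducing cytokines on chromosome 11, rose 1.88-fold (adjusted p = 0.000507), Zbtb20 1.80-fold (0.0103, edgeR) and Pax6 by 0.59 on the log2 scale (0.00103).

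The falls in this group were in Atf3, Lef1 and Runx2. Atf3, a stress-induced factor, was at 3.61 ± 0.501 CPM in the libraries labelled -/- and 12.5 ± 2.34 CPM in the flox/flox libraries (adjusted p = 0.000609, edgeR). Lef1, a Wnt effector, fell 1.49-fold (adjusted p = 0.00155). Runx2 was under 1 CPM on average in both groups and its call (adjusted p = 0.0331) was lost without flox/flox A or C or -/- A or C (up to 0.109). Olig2, an antagonist of Nfia in the oligodendrocyte lineage, had a log2 difference of 0.62 (adjusted p = 0.312, edgeR).

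**Figure D4:**
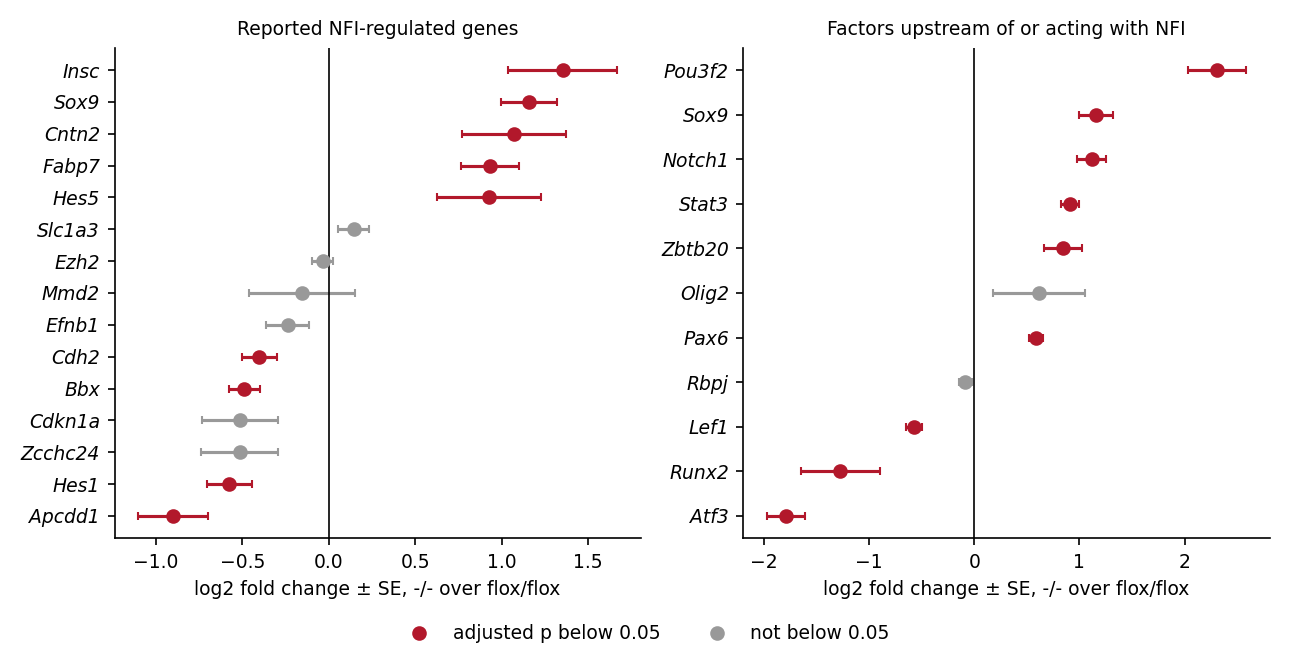
Log2 fold change with SE of the libraries labelled -/- over flox/flox (x axis) for the tested genes reported to be regulated by NFI factors (left) and for factors upstream of or acting with them (right); red marks an adjusted p below 0.05 in edgeR. On the left 5 genes rose and 4 fell, and on the right 6 rose and 3 fell.

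Markers of several cell types moved with the NFI genes, and their part in the falls was not tested. Among all genes tested, 17.9% rose and 17.4% fell. Of 9 markers of the cortical hem and choroid plexus, 8 fell and 0 rose, with a median log2 fold change of -2.38 and a summed level of 179 to 258 CPM in the libraries labelled -/- and 1011 to 1558 CPM in the flox/flox libraries. Lmx1a, Rspo3 and Rspo2 had the smallest adjusted p (0.000306, 0.000359 and 0.000380, edgeR). The choroid plexus gene Ttr was the marker without a call (adjusted p = 0.132, edgeR). It was at 0.662 ± 0.120 CPM in the libraries labelled -/- and 3.17 ± 4.52 CPM in the flox/flox libraries, with overlapping ranges. A fall of choroid plexus is therefore not shown by this list. Mesenchyme markers fell in 4 of 8 members (2 without -/- B) and rose in 1, Col1a2 (0 without flox/flox B or -/- A). Their sum was 150 to 209 CPM in the libraries labelled -/- and 290 to 714 CPM in the flox/flox libraries, of which Col3a1 made up the most. None of the markers of either list was at 0 reads in all libraries. Both sums were highest in flox/flox A (1558 and 714 CPM), the library in which Nfia, Nfib, Nfic and Nfix were also highest. They were not alone in this. The endoderm and mesoderm sum was highest in flox/flox A too (61.1 CPM). The neuron and astrocyte sums were lowest in that library (1269 and 91.5 CPM). Among the libraries labelled -/- the hem and mesenchyme sums were lowest in -/- C (179 and 150 CPM). In that library Nfia, Nfib and Nfic were the highest of the libraries labelled -/-, and Nfix was the lowest.

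Neuron markers rose in 11 of 12 members and fell in 0 (7 rose without flox/flox A and 6 without flox/flox B), with a summed level of 2816 to 4783 CPM in the libraries labelled -/- and 1269 to 2267 CPM in the flox/flox libraries. By comparison 17.9% of all genes tested rose and 17.4% fell. Among the neuron markers, Nsg2, Mapt and Syt4 had the smallest adjusted p (0.000707, 0.00245 and 0.00257, edgeR). The first 2 of them lie on chromosome 11. Progenitor markers rose in 5 of 10 members and fell in 4 (3 rose without flox/flox B or -/- B, and 2 and 1 fell without them). Pax6, Fabp7 and Sox3 led the rises, and Sox2, Hes1 and Vim the falls. Their summed level was 3098 to 3465 CPM in the libraries labelled -/- and 3358 to 3905 CPM in the flox/flox libraries, and these sums overlapped between the groups.

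Glial markers were called at a share near that of all genes, 3 of the 10 tested against 35.3%. Astrocyte markers rose in 2 of the 6 members tested of 8 and fell in 0, the 2 being Slc1a2 and Aldh1l1, neither of which passed without flox/flox B (0.0529 and 0.0513). The defining genes Gfap and S100b were at most 0.304 and 0.239 CPM in any library, and Aqp4 was at most 1.63 CPM, and all 3 had lower means in the libraries labelled -/- without a call. The summed level of the list was 272 to 441 CPM in the libraries labelled -/- and 91.5 to 211 CPM in the flox/flox libraries. It rested mostly on Slc1a2 (144 ± 41.2 CPM in the libraries labelled -/-, 52.7 ± 23.8 CPM in the flox/flox libraries) and on Fgfr3 (142 ± 48.7 CPM in the libraries labelled -/-, 37.9 ± 38.3 CPM in the flox/flox libraries), which did not pass (adjusted p = 0.0654, edgeR). The oligodendrocyte lineage list had 4 of 5 members tested, of which 0 rose (2 without flox/flox A, 1 without -/- A or -/- C) and Cspg4 fell (not without -/- B). Pluripotency markers fell in 2 of 5, Esrrb and Pou5f1 (1 without any single flox/flox library or -/- B), and rose in 0 (1 when blocked on letter). Of 5 endoderm and mesoderm markers, Sox17 and Gata6 rose (1 rose without flox/flox B or C or -/- A or B) and T fell (not without flox/flox A or -/- B).

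**Figure D5:**
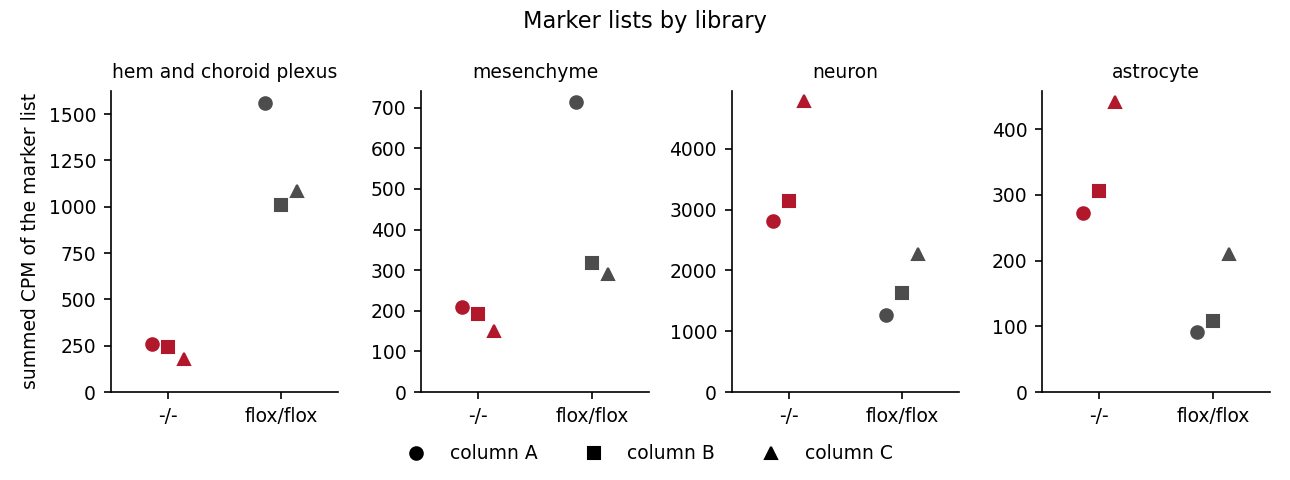
Summed TMM-normalised CPM of 4 marker lists (y axis, linear from 0) in the libraries labelled -/- (left, red) and flox/flox (right, grey), with marker shapes for the column letter. Hem and mesenchyme sums lie lower in the libraries labelled -/- and peak in flox/flox A (1558 and 714 CPM), while neuron and astrocyte sums lie higher; most of the astrocyte sum is Slc1a2 and Fgfr3, of which Fgfr3 did not pass.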

How the data were processed

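The authors deposited 1 table of raw read counts per Ensembl gene for the 6 libraries. Per the labels' protocols, libraries were made with a stranded poly(A) mRNA kit. Per the submitters' processing notes, the tools named are BWA 0.5.9 and featureCounts 1.4.6 and the build is mm10 (GRCm38). Not given in the sources used here are the annotation release, the strand setting and how multiply mapped and duplicate reads were treated. Column names hold a genotype and a letter (A, B or C) but the labels use replicate numbers, so each column was given a group only.

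Symbols, positions and exon lengths came from GENCODE M21, which named 48144 of the 48526 identifiers. Counts were tested in R 4.3.3 with edgeR 4.0.16 (filterByExpr with a minimum count of 10, TMM scaling, glmQLFit and glmQLFTest, two-sided, group as the only term), with Benjamini-Hochberg adjustment over 20549 genes and a threshold of 0.05. The SE is the log2 fold change divided by the root of F. The procedure was run on simulated data in which 200 genes were changed, far fewer than were called here. That run therefore does not give the error rate at the share of changed genes seen in these data. Libraries of a group differed by more than sampling noise (chi-square per gene 5.14 to 27.6). Alternatives were DESeq2 1.42.0, limma-voom (limma 3.58.1), other scalings, filters and thresholds, and leaving out each library. Deviations from the group mean correlated by 0.275, 0.101 and 0.264 between libraries with the letters A, B and C, each above 0.1, so a block on the letter was fitted as an alternative; no label says what the letters stand for.

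The members and the 11 gene lists were chosen with earlier results of these data known. Named genes are the members, Dmrta2, the 3 genes most like each member in pattern, overlapping and nearest protein-coding genes, up to 3 listed genes per direction with the smallest adjusted p, and all genes of the 2 lists linked to NFI factors. Members of other lists that are named without being among these 3 were chosen after their values were seen. Sequence alignment used Biopython 1.88.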

Additional observations from a re-analysis of the deposited data

How the results depend on the processing

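The fold changes of Nfia, Nfib, Nfic and Nfix passed the threshold in the same direction in all 60 values under 15 alternatives. Over the omission of single libraries the log2 fold changes ran from -3.04 to -2.32 for Nfia, -2.01 to -1.74 for Nfib, -0.77 to -0.52 for Nfic and -1.83 to -1.40 for Nfix, and under the other 9 settings from -2.83 to -2.75, -1.89 to -1.85, -0.70 to -0.67 and -1.70 to -1.66. With the replicate block on the column letter they were -2.75, -1.87, -0.68 and -1.67, and the block changed the call of none of the 4. At a threshold of 0.01 there were 3887 calls in place of 7250, 1992 higher and 1895 lower, against 3679 and 3571. Leaving out single libraries gave 4717 (flox/flox B) to 6846 calls, 2315 (flox/flox B) to 3510 higher and 2342 (-/- B) to 3336 lower, from fits with fewer samples. Without division by exon length the shares of Nfia, Nfib, Nfic and Nfix were 11.2%, 29.9%, 47.4% and 11.5% in the libraries labelled -/-. In the flox/flox libraries they were 25.2%, 36.9%, 25.7% and 12.2%. Of 330 list counts under the alternatives, 43 moved by over 1.5 times, among them those named beside the lists. Between 94 and 1204 reads stood behind each value of a member, and with 3 libraries a group the exact test of the ratios cannot pass 0.05.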
